A study of Rattus norvegicus with 6 samples.

Results

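The genes described are 7 genes of peroxisomal fatty acid oxidation and ketone body metabolism: Ehhadh, Hsd17b4, Acaa1a, Crot, Acot1, Pex11a and Bdh1. They were taken by symbol, after the accession of each non-control array probe had been matched to the rat RefSeq gene table. They are 7 of the 15284 genes with a named probe, and are read by 12 of the 61657 probes. All 12 probes were well above background on all 6 arrays, so all 7 genes passed the filter on dim signals and were among the 11094 genes tested.

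Liver RNA came from male Sprague-Dawley (Crl:CD(SD)) rats, an outbred laboratory stock, bought at 5 weeks of age, with 1 animal per array. A solvent alcohol, tert-Butyl alcohol (here tBA), was given to 3 rats at a dose of 1000 mg/kg/day, and the other 3 received vehicle only. The vehicle was purified water in the sample labels and corn oil in the treatment protocol, and the time was 28 days in the series text and 9 weeks in that protocol. All rats shared the basal diet and the light cycle, and no time of day or fasting state was given in the sources used here. The 3 vehicle arrays and tBA replicate 1 lay on slide 1, tBA replicates 2 and 3 on slide 2. Between 61.5% and 66.9% of probes were well above background per array, and no spot was saturated. All 8 hepatocyte markers were well above background on all arrays, with summed signals of 4913 to 5323 times the array's 75th percentile in vehicle and 4898 to 5180 in tBA. Whole liver was measured, where fewer cells of a type and less RNA per cell cannot be told apart.

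Peroxisomes shorten very long and branched acyl-CoAs and bile acid precursors that mitochondria handle poorly. Each round runs through an acyl-CoA oxidase, a bifunctional enzyme that hydrates and dehydrogenates, and a thiolase that cleaves. The shortened products leave as carnitine esters or, after a thioesterase has acted, as free acids. Mitochondria turn acetyl-CoA into acetoacetate, which Bdh1 reduces to 3-hydroxybutyrate for export to other tissues. In rodent liver many of these genes are textbook targets of the nuclear receptor PPARalpha, which fatty acids and fibrate drugs activate.

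Of the 7 genes, 6 were higher and 1 lower with tBA, and none passed an adjusted p of 0.05. By their brightest probes, Pex11a and Hsd17b4 had higher values on all 3 tBA arrays than on any vehicle array, as did 12.8% of all genes tested. The groups overlapped at the other Pex11a probes. The largest difference, that of Acot1, came with the widest spread. Acaa1a, Crot and Bdh1 lay within 0.14 log2 units of the vehicle mean. All values below are log2 of the processed signal minus the array's 75th percentile, and differences are tBA minus vehicle on that scale, fitted with limma, so that 1 unit is a doubling.

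**Figure D1:**
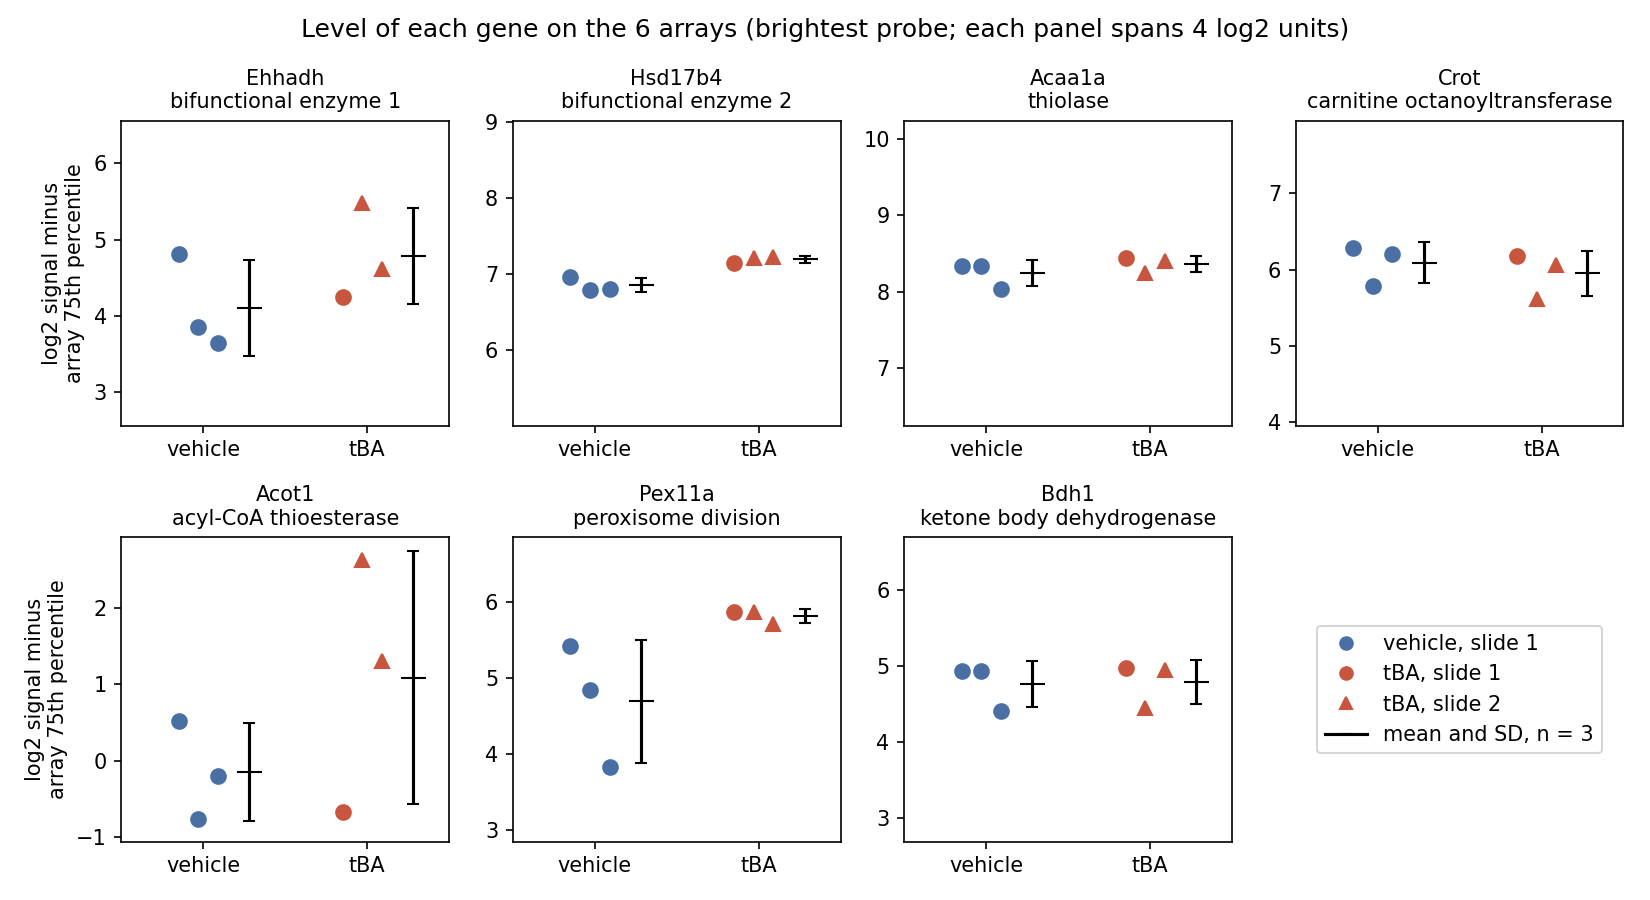
The log2 processed signal minus the array's 75th percentile (vertical axis) is plotted for each of the 7 genes, with 1 point per array, circles for slide 1, triangles for slide 2, and the mean and SD of 3 arrays beside them. Pex11a and Hsd17b4 are the genes with all tBA points above all vehicle points, and Acot1 has 1 tBA point among the vehicle points.

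The proximal promoters of the members are given because PPARalpha binds, with its partner RXR, a direct repeat of the hexamer AGGTCA with 1 base between, here called DR1. Those shown are of the members whose groups did not overlap, and of Ehhadh and Acot1, the members with the largest differences among the rest. Each run holds the 250 bases before the RefSeq transcription start of the GRCr8 assembly, 5′ to 3′ on the gene's strand. Capitals mark the hexamer AGGTCA, the CCAAT box CCAAT and the GC box GGGCGG, each searched on both strands. The windows lie at chr1:143096492-143096741 (minus strand, Pex11a), chr18:45515177-45515426 (plus, Hsd17b4), chr11:92746159-92746408 (plus, Ehhadh) and chr6:109367024-109367273 (plus, Acot1).
Pex11a: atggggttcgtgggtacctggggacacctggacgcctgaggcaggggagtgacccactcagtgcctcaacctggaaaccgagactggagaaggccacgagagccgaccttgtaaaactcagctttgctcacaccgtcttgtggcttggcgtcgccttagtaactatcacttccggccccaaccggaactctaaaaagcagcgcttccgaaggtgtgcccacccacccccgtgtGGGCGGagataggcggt
Hsd17b4: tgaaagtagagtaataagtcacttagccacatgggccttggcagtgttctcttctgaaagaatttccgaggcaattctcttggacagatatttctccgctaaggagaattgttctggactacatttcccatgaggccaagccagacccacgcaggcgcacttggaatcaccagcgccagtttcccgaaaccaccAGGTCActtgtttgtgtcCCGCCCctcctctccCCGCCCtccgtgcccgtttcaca
Ehhadh: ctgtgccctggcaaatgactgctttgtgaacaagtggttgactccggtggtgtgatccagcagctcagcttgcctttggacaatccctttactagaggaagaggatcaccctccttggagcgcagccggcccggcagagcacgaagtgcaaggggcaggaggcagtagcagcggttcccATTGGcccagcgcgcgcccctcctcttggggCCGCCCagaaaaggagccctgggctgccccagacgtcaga
Acot1: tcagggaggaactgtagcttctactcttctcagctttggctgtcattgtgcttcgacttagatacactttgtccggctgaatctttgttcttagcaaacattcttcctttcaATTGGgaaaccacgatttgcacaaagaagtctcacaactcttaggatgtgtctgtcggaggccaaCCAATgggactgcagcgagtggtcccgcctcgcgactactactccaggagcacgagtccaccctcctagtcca

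All 7 members were found in the promoter table. The DR1 motif, AGGTCA repeated after any 1 base, was in 0 of the 7 windows and in 0.0508% of the 33469 windows of the same length, and its relaxed form, AGGNCA repeated after any 1 base, which includes every DR1 match, in 0 of 7 and 0.368%. The single hexamer was in 1 of 7, that of Hsd17b4 at bases -56 to -51 from the start, and in 14.1% of all windows. The GC box was in 6 of 7 windows, all but that of Acot1, and in 30.5% of all. The CCAAT box was in 4 of 7, those of Ehhadh, Acaa1a, Crot and Acot1, and in 34.0% of all. GC content was 60.0% in the Pex11a window, 52.4% for Hsd17b4, 62.0% for Ehhadh and 49.6% for Acot1, against a median of 51.2% over all. These windows do not reach distal elements, and a match or its absence describes the letters only.

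Ehhadh encodes the first peroxisomal bifunctional enzyme, which acts mainly on straight-chain and dicarboxylic acids. It read 4.81, 3.85 and 3.64 in vehicle and 4.25, 5.48 and 4.62 in tBA. Vehicle replicate 1 lay above tBA replicates 1 and 3, so the groups overlapped. The difference was 0.68 (SE 0.42, limma adjusted p = 0.449), or 1.60-fold with a 95% interval of 0.795 to 3.23. Leaving out vehicle replicate 1 made it 1.04, leaving out vehicle replicate 3 made it 0.45, leaving out tBA replicate 2 made it 0.33, and within slide 1 it was 0.15. The SDs of 0.62 in vehicle and 0.63 in tBA were at the 96.1st and 96.4th percentiles of all genes tested.

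Hsd17b4 encodes the second peroxisomal bifunctional enzyme, which handles branched acyl-CoAs and bile acid precursors as well as straight chains. Its brightest probe read 6.96, 6.80 and 6.81 in vehicle and 7.15, 7.21 and 7.23 in tBA. The groups did not overlap, and both were tight. The difference was 0.34 (SE 0.09), or 1.27-fold with a 95% interval of 1.09 to 1.47. The limma p was 0.00833 unadjusted and 0.220 adjusted over 37647 probes, and the exact permutation test of 3 against 3 gave p = 0.1, the smallest it can give. Its second probe, A_44_P365531, read 4.98, 4.89 and 4.85 in vehicle and 5.14, 5.19 and 5.17 in tBA, a difference of 0.26 (SE 0.08), also without overlap. Under quantile normalization the difference at the brightest probe was 0.21, where limma gave p = 0.0678 unadjusted and an exact test of 3 against 3 could not go below 0.1.

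Acaa1a encodes the thiolase that ends each peroxisomal round. Its brightest probe read 8.34, 8.34 and 8.04 in vehicle and 8.44, 8.24 and 8.40 in tBA. The groups overlapped, with vehicle replicate 3 the lowest. The difference was 0.12 (SE 0.12, limma adjusted p = 0.633), with a 95% interval of -0.17 to 0.41. The other 2 probes gave 0.20 and 0.22 with overlapping groups. Acaa1b, its near-identical neighbour in sequence, was at 0.30 (SE 0.15), and its 3 probes ran from 0.14 to 0.71, so the values of this gene pair may not be separate.

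Crot transfers medium-chain acyl groups to carnitine so that they can leave the peroxisome. It read 6.29, 5.78 and 6.21 in vehicle and 6.18, 5.62 and 6.06 in tBA. Vehicle replicate 2 and tBA replicate 2 were the low arrays of their groups. The difference was -0.14 (SE 0.20, limma adjusted p = 0.748), with a 95% interval of -0.62 to 0.35. Its sign turned within slide 1, at 0.087, and without tBA replicate 2, at 0.028.

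Acot1 encodes a cytosolic thioesterase that frees long-chain fatty acids from coenzyme A. Its 1 probe read 0.52, -0.76 and -0.21 in vehicle and -0.68, 2.63 and 1.31 in tBA. The array of tBA replicate 1 was inside the vehicle range, and tBA replicates 2 and 3 were above it. The difference was 1.23 (SE 0.83, limma adjusted p = 0.483), or 2.35-fold with a 95% interval of 0.586 to 9.45, which holds both a fall and a several-fold rise. The 3 tBA animals spanned 3.30 units, or 9.86-fold, and their SD of 1.66 was at the 99.7th percentile of all genes tested. The difference was 0.47 without tBA replicate 2 and 2.12 without tBA replicate 1, where the limma adjusted p was 0.192, and the exact permutation test cannot go below 0.1. Within slide 1 it was -0.53. The arrays high in Acot1 were the 2 arrays of slide 2, so slide and animal cannot be told apart there.

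Of the 8 skeletal muscle markers fixed, 7 had a named probe and 4 were tested. On tBA replicates 2 and 3 all 4 lay above their vehicle means. Over the 3 tBA arrays 2 had a higher mean than in vehicle and 2, Ckm and Myh2, a lower one. These 2 were at -3.42 and -7.27 on tBA replicate 1, the lowest of the 6 arrays. Those well above background on all arrays, Mb and Ckm, were highest on tBA replicates 2 and 3. Myh2 was highest on tBA replicate 3, at -3.53, while tBA replicate 2, at -4.14, lay below vehicle replicate 1, at -3.90. Acta1 was above the vehicle range on all 3 tBA arrays. The summed signals of the named markers were 1.28 and 1.11 on tBA replicates 2 and 3 against 0.788 to 0.932 on the other 4. Myh1 and Myh4, defining genes of fast fibres, were not well above background on any array. The summed adipocyte markers, 5 of 6 named and 2 above background on all arrays, ran from 6.15 to 8.65 in vehicle and 6.76 to 9.83 in tBA, and Adipoq, Lep and Ucp1 were not well above background on any array. Their part in the Acot1 values was not tested.

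Acot1 lies in a row of related thioesterase genes, in the order Acot2, Acot1, Acot4, Acot3, Acot5 and Acot6 in the RefSeq table, with the ribosomal protein-like gene Rpl23al8 between Acot1 and Acot4. Their sequences are similar enough that a probe of one may also read others, so their values are uncertain as separate measurements. Acot2, the mitochondrial form, read 4.48, 3.85 and 4.01 in vehicle and 4.04, 5.32 and 4.71 in tBA, a difference of 0.58 (SE 0.34). Acot4, a peroxisomal form for dicarboxylic acids, read 5.16, 4.03 and 5.00 in vehicle and 5.12, 6.09 and 5.51 in tBA, a difference of 0.84 (SE 0.37). In Acot1, Acot2 and Acot4 tBA replicate 2 was the highest of the 6 arrays, tBA replicate 3 the next, and vehicle replicate 2 the lowest. Acot3 was at 0.28 (SE 0.26), with tBA replicate 3 highest at 1.45 and tBA replicate 1 lowest at 0.39. Acot5 read 4.62, 2.92 and 4.45 in vehicle and 4.75, 5.68 and 2.58 in tBA, so its highest and its lowest array were both tBA arrays. None of these 4 neighbours passed limma, with adjusted p of 0.333 to 0.863. Within slide 1, Acot2 and Acot3 turned sign, at -0.07 and -0.27, as Acot1 did, while Acot4 was at 0.39 and Acot5 at 0.76.

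**Figure D2:**
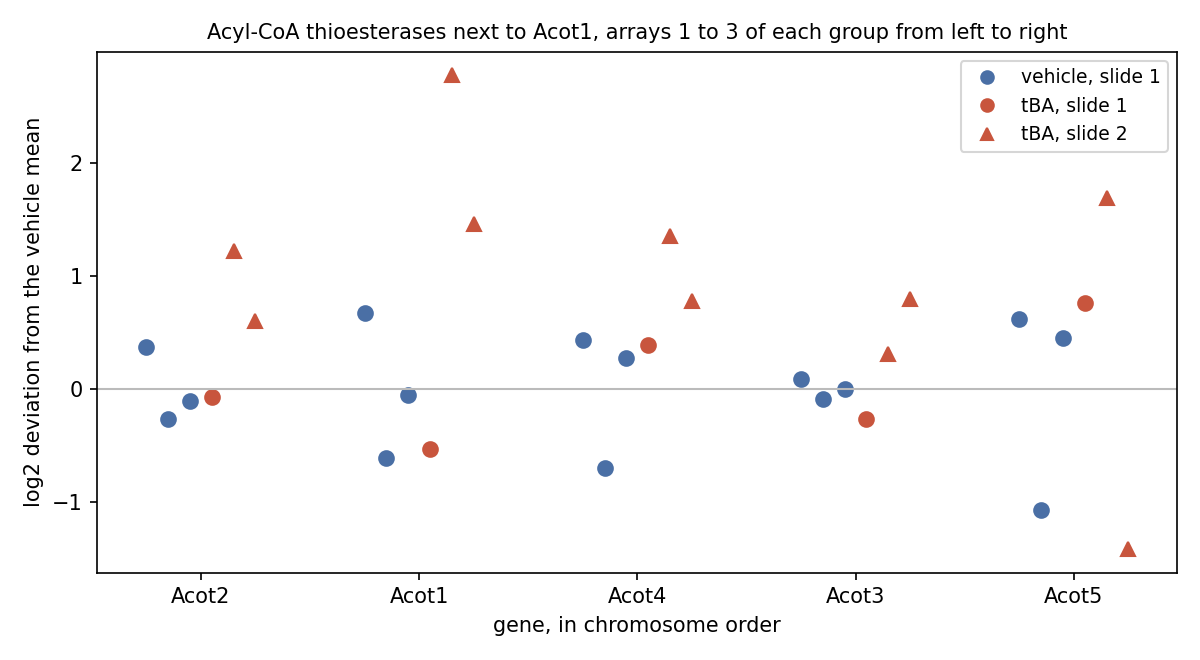
The log2 deviation of each array from the vehicle mean (vertical axis) is plotted for 5 neighbouring thioesterase genes, with vehicle arrays in blue and tBA arrays in red, circles for slide 1 and triangles for slide 2. In Acot1, Acot2, Acot3 and Acot4 the 2 triangles lie above all circles, and in Acot5 they lie at opposite ends.

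Pex11a encodes a membrane protein that elongates and divides peroxisomes. Its brightest probe stood at 5.41, 4.84 and 3.83 on vehicle replicates 1 to 3 and at 5.87, 5.87 and 5.71 on tBA replicates 1 to 3. The 3 tBA animals lay close together above the highest vehicle animal, while the vehicle animals spanned 1.59 units. The mean was 4.69 ± 0.80 in vehicle and 5.81 ± 0.09 in tBA (SD, n = 3 each), a difference of 1.12 (SE 0.38), or 2.18-fold with a 95% interval of 1.15 to 4.13. The limma p was 0.0248 unadjusted and 0.275 adjusted, and the exact permutation p was again 0.1. The SD in vehicle was at the 97.9th percentile of all genes tested, and the SD in tBA at the 28.6th.

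The other 2 probes of Pex11a had the same sign but overlapping groups. Probe A_42_P561754 read 2.56, 1.83 and 0.83 in vehicle and 2.61, 2.88 and 2.49 in tBA, a difference of 0.92 (SE 0.42). Probe A_44_P510470 read 0.61, -0.06 and -1.06 in vehicle and 0.41, 0.85 and 0.39 in tBA, a difference of 0.72 (SE 0.41). At all 3 probes vehicle replicate 1 was the highest vehicle array and vehicle replicate 3 the lowest, and without vehicle replicate 3 the difference at the brightest probe was 0.69. Within slide 1, tBA replicate 1 was 1.17 above the vehicle mean.

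Bdh1, the mitochondrial 3-hydroxybutyrate dehydrogenase, read 4.94, 4.94 and 4.41 in vehicle and 4.97, 4.45 and 4.95 in tBA. In each group 2 animals were alike and 1 was lower. The difference was 0.03 (SE 0.21, limma adjusted p = 0.959), with a 95% interval of -0.48 to 0.54, or 0.717-fold to 1.45-fold. Its sign turned under quantile normalization, at -0.06, and without vehicle replicate 3, tBA replicate 1 or tBA replicate 3, at -0.15, -0.06 and -0.05.

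**Figure D3:**
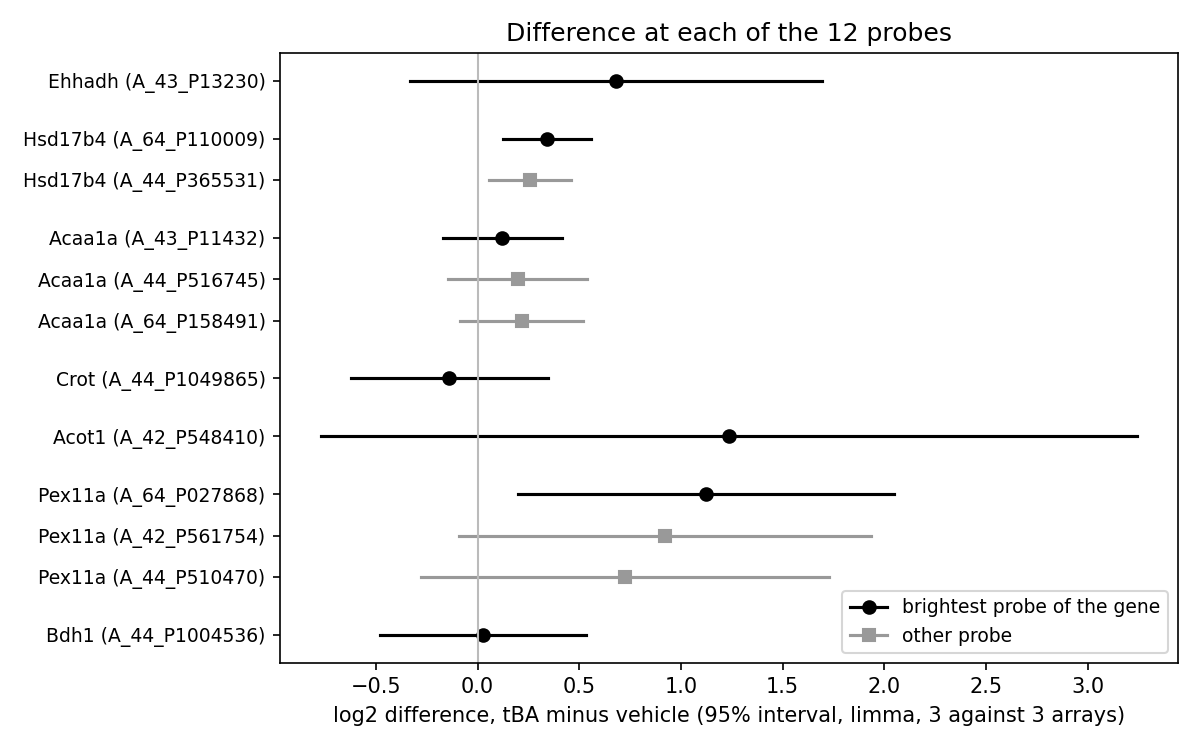
The log2 difference of tBA minus vehicle (horizontal axis) with its 95% interval from limma is drawn for each of the 12 probes, with black circles for the brightest probe of a gene and grey squares for the others. The intervals of both Hsd17b4 probes and of the brightest Pex11a probe lie above 0, and the Acot1 interval runs from -0.77 to 3.24.

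Counted together, 0 of the 7 genes passed the adjusted threshold, against 0.0451% of the 11094 genes tested (5 genes). At an unadjusted limma p under 0.05 there were 2 of 7, against 15.1% of all genes. Both were higher with tBA, a direction and threshold met by 7.64% of all genes, and 0 of 7 were lower, against 7.45%. The groups did not overlap in 2 of 7, against 24.1% of all genes, and in the direction of higher tBA that share was 12.8%. The difference was above 0 in 6 of 7 genes (5 of 7 under quantile normalization) and in 50.6% of all genes, and the median was 0.34 over the 7 and 0.0032 over all. The median over the 7 was 0.21 under quantile normalization and 0.20 within slide 1. These 7 genes were chosen with earlier results of these data known, so the counts and medians are a description only. Within slide 1, which rests on tBA replicate 1 alone, 0 of the 7 had an unadjusted p under 0.05, against 7.27% of all genes.

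Vehicle animals differed among themselves in these genes. Vehicle replicate 1 was above the vehicle mean in 7 of 7 genes, vehicle replicate 2 in 3 and vehicle replicate 3 in 1, Crot. In Pex11a, Ehhadh, Acaa1a and Bdh1 vehicle replicate 3 was the lowest array of its group. On the tBA arrays, 6, 5 and 6 of the 7 genes lay above the vehicle mean for replicates 1 to 3. The genes below it were Acot1 on tBA replicate 1, Crot and Bdh1 on tBA replicate 2, and Crot on tBA replicate 3.

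**Figure D4:**
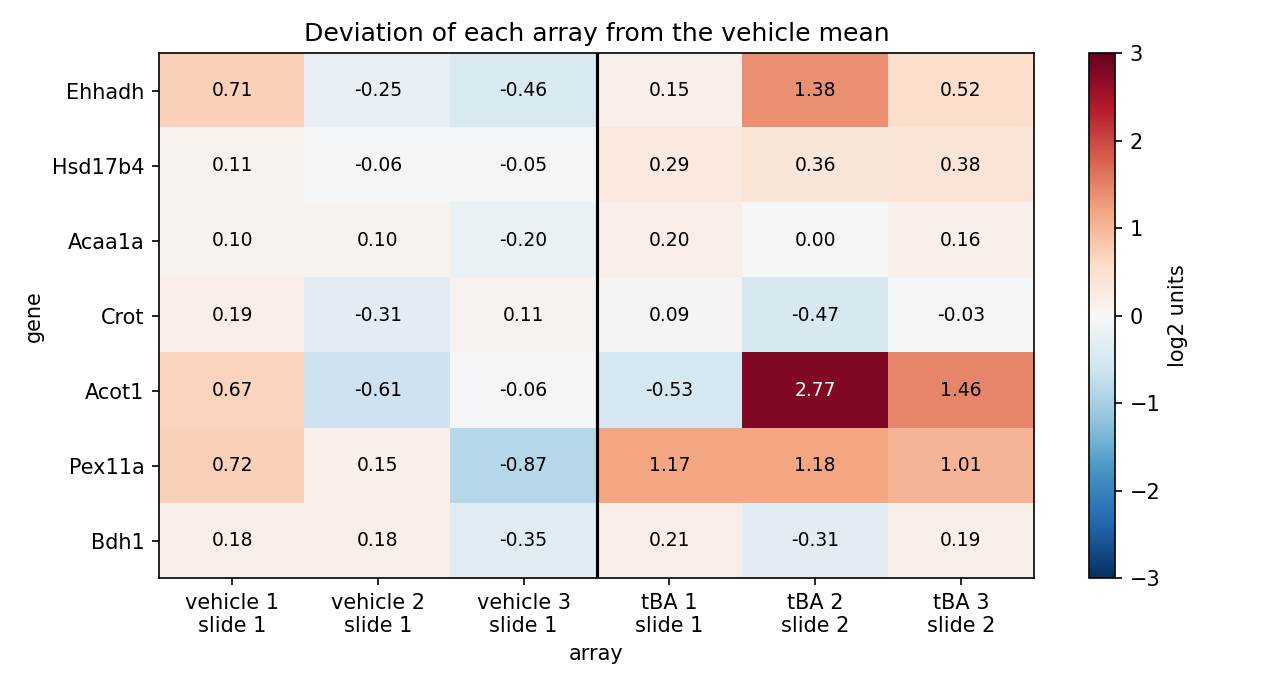
Each cell gives 1 gene's log2 deviation on 1 array from that gene's mean over the 3 vehicle arrays, with arrays as columns, genes as rows and colour from -3 to 3 log2 units. Pex11a lies between 1.01 and 1.18 on the 3 tBA arrays, and Acot1 goes from -0.53 to 2.77 on them.

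Other genes of peroxisomal beta-oxidation, with transporters, thioesterases and related enzymes, from a list of 29, were measured alongside. The list includes the mitochondrial form Acot2 and other thioesterase neighbours of Acot1, so its counts may not all be separate measurements. Of 27 tested, 20 had a higher mean with tBA and 7 a lower one, and the median difference was 0.21, against 0.0032 over all genes. Within slide 1, which rests on tBA replicate 1 alone, more genes turned from above 0 to below it than the other way. The same held in each of the lists that follow. Unadjusted limma p was under 0.05 for 5 of the 27 with a higher value and 1 with a lower one, against 7.64% and 7.45% of all genes, and 0 passed after adjustment. The tBA arrays lay above the vehicle range in 5 of the 27, against 12.8% of all genes. Crat, which moves short acyl groups to carnitine, read 5.30, 5.00 and 4.55 in vehicle and 5.64, 6.06 and 5.88 in tBA, a difference of 0.91 (SE 0.21, limma adjusted p = 0.202). Its groups did not overlap. Catalase, Cat, which destroys the hydrogen peroxide made by the oxidases, went the other way: 5.29, 4.90 and 4.95 in vehicle and 4.33, 4.68 and 4.57 in tBA, a difference of -0.52 (SE 0.15, limma adjusted p = 0.240), without overlap. Acot12, an acetyl-CoA thioesterase, was at 0.41 (SE 0.13), the very long-chain acyl-CoA synthetase Slc27a2 at 0.33 (SE 0.12) and the enoyl-CoA reductase Pecr at 0.21 (SE 0.08), all 3 without overlap and none passing.

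Of the 18 tested genes for peroxisome assembly and membrane, 12 lay above 0 and 6 below, and the median was 0.15. Unadjusted limma p was under 0.05 for 2 of the 18, both higher, against 7.64% of all genes, and 0 passed after adjustment. The tBA arrays lay above the vehicle range in 5 of the 18, against 12.8%. The membrane protein chaperone Pex19 was at 0.26 (SE 0.09) by its brightest probe, but its 7 probes ran from -0.27 to 0.39 and their mean was 0.06. The docking protein Pex14 was at 0.40 (SE 0.15), with 3 probes from 0.27 to 0.45. The pore protein Pxmp2 was at 0.22 and Pex13, of the import machinery, at 0.16. These 4 genes were among those 5. Pex11g, a paralogue of Pex11a, was on the other side of 0, at -0.18 (SE 0.14), and the difference between these genes was not tested.

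The ketone body genes were mixed. Of 11 tested, 6 lay above 0 and 5 below, and the median was 0.03. Unadjusted limma p was under 0.05 for 1, which was higher, against 7.64% of all genes, and 0 passed after adjustment. The tBA arrays lay above the vehicle range in 3 of the 11, against 12.8%. The cytosolic dehydrogenase Bdh2 was at 0.36 (SE 0.18), with tBA arrays above the vehicle range. Slc16a6, which exports ketone bodies from liver, read -0.59, -0.42 and -0.41 in vehicle and -0.01, -0.26 and 0.26 in tBA. Its difference of 0.47 (SE 0.15, limma adjusted p = 0.263) had the smallest p of this list. The carrier Slc16a1 was at -0.09, though above 0 without vehicle replicate 1, and Slc16a7 at -0.03, though above 0 under median scaling. The thiolase Acat1 was at 0.03, but at -0.27 within slide 1, at -0.03 under quantile normalization and below 0 without tBA replicate 2. The mitochondrial deacetylase Sirt3 was at 0.40 (SE 0.18). Oxct1, the enzyme of ketone use that liver largely lacks, was at -0.17. The cytosolic synthase Hmgcs1 and Aacs, which serve sterol and fat synthesis, were at -0.75 (SE 0.33) and -0.78 (SE 0.34).

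PPARalpha itself, its partners and its other targets also went both ways. Of 22 tested, 14 lay above 0 and 8 below, and the median was 0.11. Within slide 1, which rests on tBA replicate 1 alone, more of them lay below 0 than above. Unadjusted limma p was under 0.05 for 3 with a higher value and 2 with a lower one, against 7.64% and 7.45% of all genes, and 0 passed after adjustment. The tBA arrays lay above the vehicle range in 2 of the 22 and below it in 2. Over all genes the shares were 12.8% above it and 24.1% on either side. Ppara read 0.59, 1.70 and 0.70 in vehicle and 1.35, 1.71 and 0.21 in tBA, a difference of 0.10 (SE 0.47) whose sign turned without any 1 of 4 arrays, and Rxra was at -0.08. The fatty acid omega-hydroxylase Cyp4a3 was at 0.48 (SE 0.15) and the lipase inhibitor Angptl4 at 0.56 (SE 0.21), without overlap at the brightest probe. The other Angptl4 probe was at 0.44, and there the groups overlapped. The fatty acid uptake protein Cd36 was at 1.01 (SE 0.38), with vehicle replicate 1 at 3.50 inside the tBA range of 3.44 to 3.82. The hormone Fgf21 was at -0.88 (SE 0.23) and the fatty aldehyde dehydrogenase Aldh3a2 at -0.27 (SE 0.11), lower without overlap. Cyp4a1 and Cpt1a were at -0.0080 and -0.03, and each turned sign under median scaling and when some single arrays were left out.

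**Figure D5:**
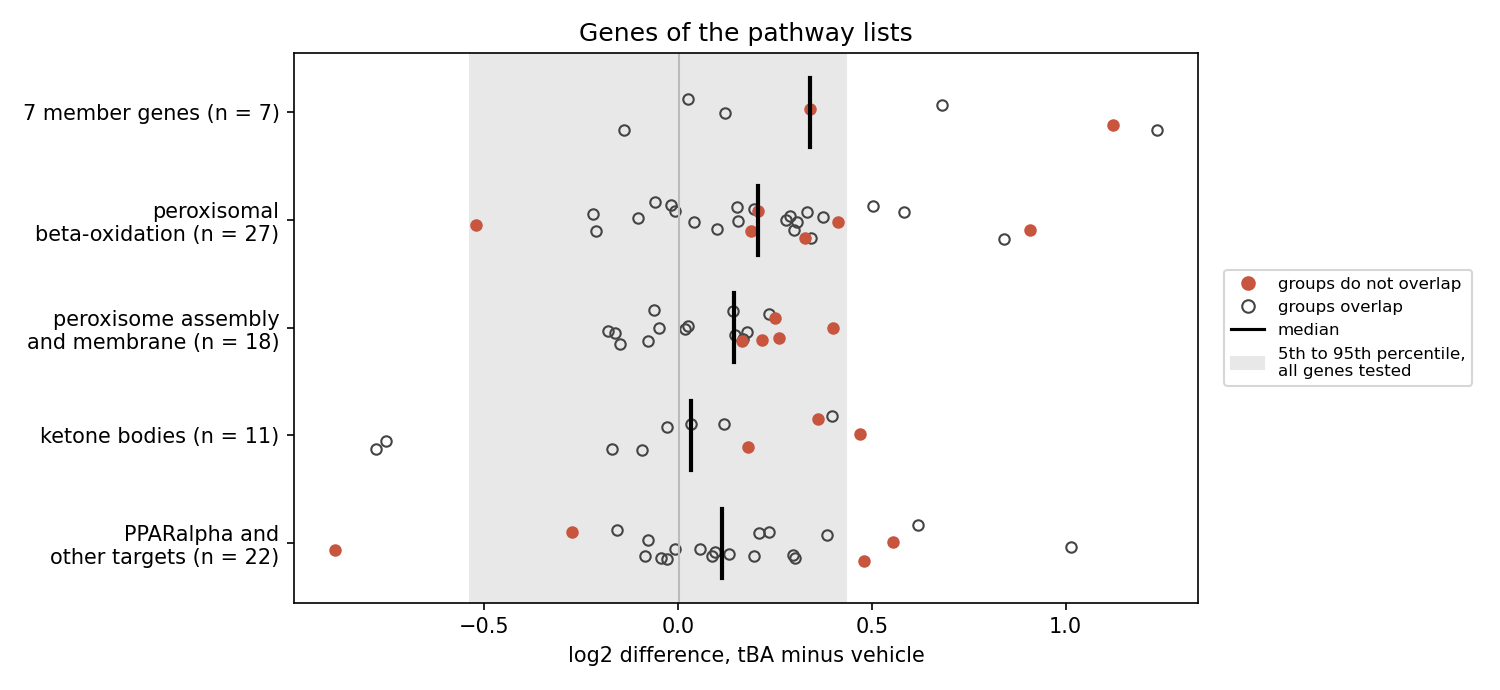
Each point is 1 gene's log2 difference of tBA minus vehicle (horizontal axis), filled where the groups do not overlap, for the 7 members and the 4 pathway lists, with a bar at each median and a band from the 5th to the 95th percentile of all genes tested, -0.54 to 0.43. The medians run from 0.03 for ketone bodies to 0.34 for the members.

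Of 5 endothelial markers fixed, 4 had a named probe, all well above background on all arrays, and their summed signal was 43.2 to 48.7 in vehicle and 50.8 to 53.2 in tBA. Kdr alone had groups that did not overlap, with 5.13, 5.29 and 5.15 in vehicle and 5.39, 5.40 and 5.45 in tBA. Its vehicle mean of 5.19 was above those of Lyve1, 2.35, Pecam1, 1.54, and Cdh5, -1.25, so the sum mostly follows Kdr. Pecam1, at 0.15, and Lyve1, at 0.18, overlapped, and Cdh5 was at -0.04. The other probes of Pecam1 and Cdh5 had the opposite sign, at -0.17 and 0.10. The summed signals of the Kupffer cell, bile duct, stellate, T and NK cell, B cell, neutrophil, red blood cell and pancreas markers overlapped between the groups. Gene by gene, all 6 stellate markers had a lower mean with tBA (median -0.12), with Reln the 1 without overlap, as did 5 of 6 Kupffer cell markers (median -0.20), all 3 tested T and NK cell markers (median -0.43) and both tested B cell markers (median -0.46). Both tested neutrophil markers (median 0.36) and both tested pancreas markers (median 0.23) had a higher mean, and bile duct and red blood cell markers went both ways. The part of these cell types in the member values was not tested.

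The genes whose pattern over the 6 arrays was most like each member were found by Pearson's r over the genes tested. Genes with a missing value, and those known only by a locus number or accession, were left out of the ranking and the counts. The arrays form 2 groups on 2 slides, and with 6 points high values are common, so r is given as a description. For Pex11a they were Rims3 (r = 0.994) and Slc45a3 (0.991), and 27 genes had r above 0.95. For Hsd17b4 they were Naa20 (0.994) and Ccdc25 (0.992), among 65 such genes. For Ehhadh they were Cacna1i (0.999) and Carm1 (0.985), among 27. For Acot1 they were Syn1 (0.996) and Apoa5 (0.990), among 31. For Acaa1a they were Ankrd33b (0.992) and Higd1a (0.989), among 11, for Bdh1 Cmc1 (0.985) and Lgals9 (0.984), among 10, and for Crot Lhx8 (0.975) and Vac14 (0.970), among 6. None of the 7 members was named for another member by this rule.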

How the data were processed

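Cy3-labelled total RNA of 6 livers was hybridised to one-colour Agilent rat arrays. The deposited intensity values are background-subtracted processed signals, which come from Feature Extraction 10.7.1.1 according to the file headers and 10.7 in the submitters' processing notes. The deposited series table holds a linear ratio: the processed signal over 1 divisor per array, 570.0 to 639.5, close to its 75th percentile. Its column medians were 0.0950 to 0.102, so it is not centred per gene.

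Here log2 processed signal minus the array's 75th percentile was used, with control spots left out and 3 to 16 outlier spots per array treated as missing. The 37647 probes that every array of 1 group or the other had well above background were tested with limma 3.58.1 in R 4.3.3 and Benjamini-Hochberg adjustment over those probes. A gene took its brightest probe. Accessions were matched to RefSeq genes of GRCr8: 27460 probes, 15284 symbols. The array annotation uses rn4, per the file headers, and no array coordinates were used.

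Genes named are the 7 members, the 5 of smallest p in each pathway list, the ketone genes, neighbouring thioesterases and Acaa1b, and the 2 genes most like each member. A few others (Ppara, Rxra, Cyp4a1, Cpt1a, Pex11g) were added after values were seen. Some genes the rule names are not reported here. Members and lists were chosen with earlier results of these data known. Scripts were tested on simulated data. Alternatives covered background correction, normalization, filters, probe choice, an intensity trend, slide, replicate number and each array left out. Array number limits the precision.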

Additional observations from a re-analysis of the deposited data

How the results depend on the processing

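In limma 0 of the 7 members passed the adjusted threshold under each of the 18 alternatives run, with 0 to 3 at an unadjusted p under 0.05. Pex11a, Hsd17b4, Ehhadh and Acaa1a kept their sign under all of them. The intensity trend and the replicate block cannot change a difference, and the changes of filter left the same brightest probes. Those alternatives therefore say nothing about the sign. Acot1 was at -0.53 with slide as a block and with slide 1 alone, which both rest on tBA replicate 1, and Crot at 0.087 under both. Bdh1 was at -0.057 under quantile normalization. Leaving out 1 array at a time moved Bdh1 between -0.15 and 0.20 and Crot between -0.29 and 0.028. Over all genes, 5 passed, against 1 with no filter on dim probes, 0 with probes above background on all 6 arrays, 12 with an intensity trend, 2 with slide as a block, 0 with slide 1 alone and 0 with the replicate block, and 0 to 9 with 1 array left out; the cause was not tested. Animals with the same replicate number did not deviate together (correlations of -0.05, -0.06 and 0.02), so the numbers were not taken to pair them. The replicate block leaves each difference as it was by construction and changes only its error. With it the limma adjusted p was 0.331 for Pex11a, at 1.12, and 0.362 for Hsd17b4, at 0.34. Normexp correction used the median spot signal; the mean signal was not used here. All member probes were well above background, and each group had 3 arrays. The part of signal level and of array number in these results was not tested.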
